A study of Homo sapiens with 4 samples.

Results

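S100 proteins and annexins were followed as 10 genes, 6 of the S100 family (S100A4, S100A6, S100A10, S100A11, S100A14 and S100P) and 4 annexins (ANXA1, ANXA2, ANXA3 and ANXA4), found by name among the 47251 rows of the gene table. All 10 had a mean of at least 1 FPKM (reads scaled to transcript length and library size, the unit in which the values are read here) and were among the 9873 genes tested. RNA came from AGS, an established human gastric adenocarcinoma cell line, in 4 libraries. In 2 of them the AGS cells carried an shRNA against MFAP2 (sh-MFAP2), and the other 2 are labelled control. The labels do not name the kind of control, which is read here as the scrambled shRNA of the authors' methods. An shRNA is a short hairpin from which cells cut a small RNA directed against a chosen mRNA, and MFAP2 is a glycoprotein of extracellular microfibrils. By the authors' methods, both kinds of cells had received a hairpin by lentivirus and had been selected in puromycin. Only 1 shRNA against MFAP2 was sequenced, so an effect of this hairpin and an effect of lower MFAP2 cannot be told apart. No source states whether replicates were separate cultures, so p-values measure only the spread between these libraries, which may be technical.

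S100 proteins are small proteins that bind calcium through EF-hand motifs and act mostly as dimers, in the cytoplasm on cytoskeletal and membrane partners and, when released, on receptors such as RAGE. Annexins bind acidic phospholipids when calcium is present and hold, repair or move membranes. The families meet in complexes. S100A10 with ANXA2 forms a heterotetramer at the plasma membrane that can bind plasminogen, and S100A11 pairs with ANXA1. Several members, S100A4, S100A6 and S100P among them, are known for high levels in invasive or metastatic tumours.

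Of the S100 genes, 5 lie on chromosome 1 of GRCh38 between 151982915 and 153616986, all on the minus strand, in the region that holds 17 of the 21 S100 family genes listed. S100A10 and S100A11 are 38115 bases apart, and S100A6 and S100A4 are 7368 bases apart. S100P stands outside this cluster, on chromosome 4 from 6693069 to 6697170 on the plus strand. ANXA3 is on chromosome 4, ANXA4 on chromosome 2, ANXA1 on chromosome 9 and ANXA2 on chromosome 15. The leading transcript of each annexin, the one with the highest mean, has 13 exons, whereas those of the S100 members have 2 to 4.

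The bases just upstream of the RefSeq start sites were compared because they are a feature that the choice of genes did not use. The letters TATAAA, the core of a TATA box, were looked for on both strands in the 50 bases before each start. They were found for 4 of the 10 genes, on the gene's own strand, against 924 of all 35116 promoters (2.63%) on their own strand and 1220 (3.47%) on either. The 10 genes have 11 such windows, and the search was not among the planned comparisons. The 4 stretches, each from 40 to 11 bases before the start and with TATAAA in capitals, read as follows on the gene's strand (GRCh38.p14, RefSeq).
S100A4 (chr1:153545817-153545846, minus): tggctggggTATAAAtaggtcagacctctg
S100P (chr4:6693838-6693867, plus): atgaggctgcctTATAAAgcaccaagaggc
ANXA1 (chr9:73151825-73151854, plus): ttaaaatccTATAAAatcagaagcccaagt
ANXA2 (chr15:60397997-60398026, minus): tgtggcgggTATAAAagccccacccaggcc

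In S100A4, ANXA1 and ANXA2 the motif begins 31 bases before the start, and in S100P 28 bases before it. The match is of letters only. GENCODE starts the leading transcript of S100P 809 bases upstream of the RefSeq start, and those of S100A4, ANXA1 and ANXA2 79, 108 and 57 bases upstream, so all 4 stretches lie downstream of the start of that transcript as GENCODE draws it.

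MFAP2 itself, the target of the shRNA, was at 0.0116 and 0.0138 FPKM in control and listed at 0 in the knockdown libraries, too low to check the labels. Of the 7 epithelial markers, 6 had a mean of at least 1 FPKM, and their summed level ran from 1925 to 2009 FPKM in sh-MFAP2 and from 1781 to 2008 FPKM in control. That sum was mostly keratins and EPCAM, and the junction genes varied. CLDN4 counted among the 6 only through sh-MFAP2 replicate 1, with 47.1 FPKM there and 0.0151 to 0.551 FPKM in the other libraries. CLDN7 had a mean of 30.1 ± 5.78 FPKM in sh-MFAP2 and 47.2 ± 1.49 FPKM in control (SD over the 2 libraries). Its groups did not overlap, with a log2 fold change of -0.64 (unadjusted p-value 0.0224 and adjusted p = 0.371 in limma). CDH1, E-cadherin, was at 0.584 to 1.25 FPKM. Of 12 markers of fibroblasts, endothelium and leukocytes, COL1A1 and CD68 alone reached 1 FPKM in any library. COL1A1 was at 2.27 and 2.07 FPKM under the MFAP2 hairpin and 4.36 and 4.92 FPKM under the scrambled one, and CD68 at 3.13 and 3.12 FPKM and 7.85 and 7.20 FPKM. The other markers of these cell types were at or near 0, and the part of CLDN7, COL1A1 and CD68 in the results was not tested. In bulk RNA, fewer cells of a type and less RNA per cell cannot be told apart. The step between low values implied about 54800000 to 75000000 reads per library, an inferred depth that rests on the 61.1% to 61.6% of low values on whole steps. A smaller step matched somewhat better and would imply more reads. At the inferred depth of 54800000 to 75000000 reads, 82.4 to 279 reads would lie behind S100P and at least 2730 behind each of the other members. With the smaller step these numbers would be higher.

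No member was a DEG at the limits used (p under 0.01 and adjusted p under 0.05 in limma), where 27 of the genes tested, 0.273%, were. At an unadjusted p under 0.05 there were 2 of 10, S100P higher and S100A4 lower in sh-MFAP2, against 12.3% of all genes tested. Both sh-MFAP2 libraries lay above both controls for S100P, S100A14, ANXA2 and ANXA4 (4 of 10, against 17.5% of all genes tested), and below both for S100A4 and ANXA3 (2 of 10, against 31.4%). The median log2 fold change was 0.20 over the members and -0.05 over all genes tested. The median over the members was 0.08 without sh-MFAP2 replicate 2, and 0.07 with the leading transcripts in place of the gene values, an alternative chosen after seeing the data. With a trend on transcript length removed, also chosen after seeing the data, it was 0.14. The values over all genes tested take no account of length, which the difference between the groups followed (below). The part of length in these counts and medians was not tested. The smallest two-sided p that an exact permutation of 2 against 2 libraries can give is 0.333, so the tests rest on the variance that limma shares between genes.

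**Figure D1:**
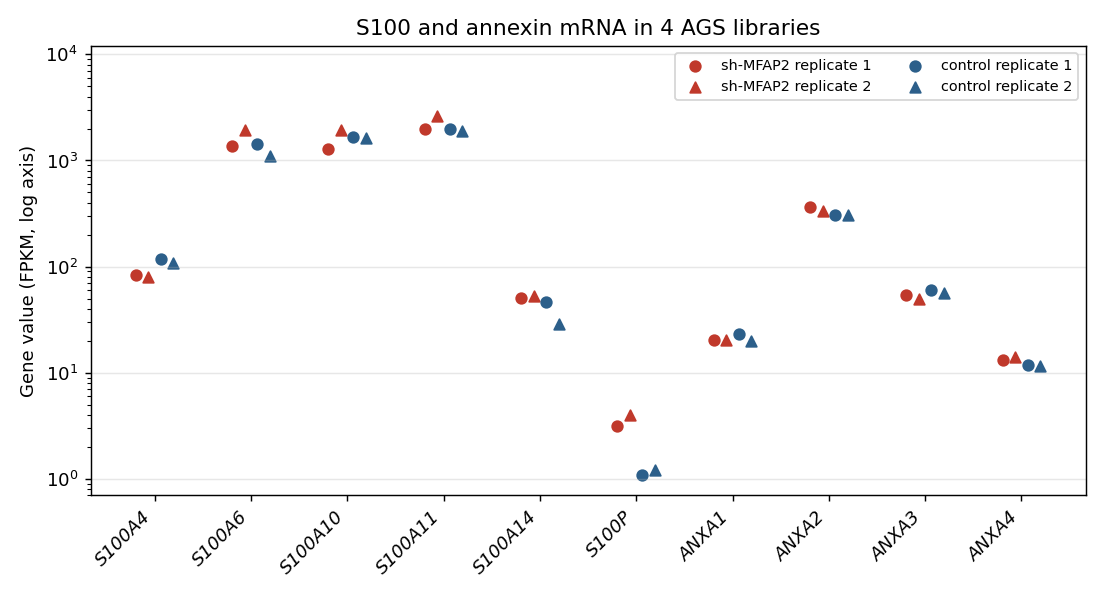
Gene value of each member in each library, in FPKM on a log axis, with sh-MFAP2 in red and control in blue and replicates as circles and triangles. S100A6, S100A10 and S100A11 lie at 1112 FPKM or above in every library, and S100P, the lowest, is the gene whose groups are farthest apart.

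S100P is a small S100 protein that binds ezrin inside the cell and RAGE outside it. In sh-MFAP2 its level was 3.15 FPKM in replicate 1 and 3.97 FPKM in replicate 2, and in control 1.09 FPKM and 1.20 FPKM. The sh-MFAP2 libraries were both above the controls, and the ratio of the group means was 3.11. On the scale of log2(FPKM + 1) this was a fold change of 1.08 (standard error, SE, 0.139, 95% interval 0.69 to 1.48, adjusted p = 0.187 in limma with Benjamini-Hochberg adjustment), the largest among the members. The unadjusted p-value of limma was 0.00185. Since the level is low, the pseudocount of 1 holds this value down, and with a pseudocount of 0.1 it was 1.55. One transcript, ENST00000296370, carried 99.5% of the summed transcript values.

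S100A4 binds nonmuscle myosin and is known as a metastasis-associated protein. It was the member with the largest difference in the other direction, with 82.6 and 79.7 FPKM under the MFAP2 hairpin and 118 and 109 FPKM under the scrambled one. The groups did not overlap, and the mean in sh-MFAP2 was 0.716 of that in control. That made a log2 fold change of -0.48 (SE 0.110, adjusted p = 0.346 in limma), with an unadjusted p-value of 0.0143. S100A4 shares 2044 bases of its locus with S100A3 on the same strand. S100A3 was listed at 1.51 to 2.07 FPKM, and the part of shared reads was not tested.

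The transcripts of S100A4 did not all move the same way. The leading one, ENST00000368716 of 600 bases, had 76.9 and 85.9 FPKM under the MFAP2 hairpin against 147 and 136 FPKM under the scrambled one, a difference of -0.79 in log2(FPKM + 1). The noncoding transcript ENST00000468373 of 537 bases had 20.6 and 12.6 FPKM against 5.31 and 3.79 FPKM, a difference of 1.64. Neither pair of groups overlapped. A fit on leading transcripts, chosen after seeing the data, gave the first an SE of 0.140 and an adjusted p of 0.348 in limma, while the second was not tested. The split between transcripts is the authors' estimate.

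S100A6, S100A10 and S100A11 were the most abundant members by gene value. S100A6, which binds the ubiquitin ligase component CACYBP, had 1384 and 1951 FPKM under the MFAP2 hairpin and 1436 and 1112 FPKM under the scrambled one. S100A11, the partner of ANXA1, had 1980 and 2650 FPKM against 1999 and 1909 FPKM. S100A10, the partner of ANXA2 whose EF-hands no longer bind calcium, had 1273 and 1941 FPKM against 1652 and 1625 FPKM. In all 3 genes sh-MFAP2 replicate 2 was the highest of the 4 libraries, and sh-MFAP2 replicate 1 lay below at least 1 control. The groups therefore overlapped, and the log2 fold changes were 0.38 (SE 0.248) for S100A6, 0.23 (SE 0.187) for S100A11 and -0.06 (SE 0.245) for S100A10. The adjusted p ran from 0.556 to 0.926 in limma. For S100A10 the 95% interval ran from -0.76 to 0.64, and so covered differences in either direction.

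These values turned on which library of sh-MFAP2 was kept. Without sh-MFAP2 replicate 2 the log2 fold change was 0.13 for S100A6, 0.02 for S100A11 and -0.36 for S100A10, and without sh-MFAP2 replicate 1 it was 0.63, 0.44 and 0.24. Genes of high level and genes with short transcripts also stood higher in replicate 2. Over the 25 genes that averaged 500 FPKM or more, which include these 3, sh-MFAP2 replicate 2 exceeded replicate 1 by a median of 0.26 in log2(FPKM + 1) and was the higher in 17. Over the 438 genes tested whose leading transcript is under 750 bases, sh-MFAP2 replicate 2 exceeded replicate 1 by a median of 0.26 in log2(FPKM + 1), against 0.04 over all genes tested. The leading transcripts of S100A6 and S100A11 have 665 and 594 bases, and that of S100A10 has 1202. In the class from 750 to 1500 bases the median was 0.16. The part of level and length in the values of these genes was not tested.

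Between the groups the difference also followed length. The median log2 fold change was 0.11 under 750 bases, 0.08 from 750 to 1500 bases, -0.01 from 1500 to 3000 bases, -0.12 from 3000 to 6000 bases and -0.18 from 6000 bases up. The leading transcripts of the S100 members have 594 to 1279 bases, in the classes where 61.9% and 63.2% of genes had a log2 fold change above 0, compared with 42.0% of all genes tested. After a trend on length was removed from each library, an alternative chosen after seeing the data, the log2 fold change was 1.02 for S100P, 0.42 for S100A14 and -0.56 for S100A4. For S100A6, S100A10 and S100A11 the values were then 0.29, -0.13 and 0.14. The part of length in the differences between the groups was not tested.

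**Figure D2:**
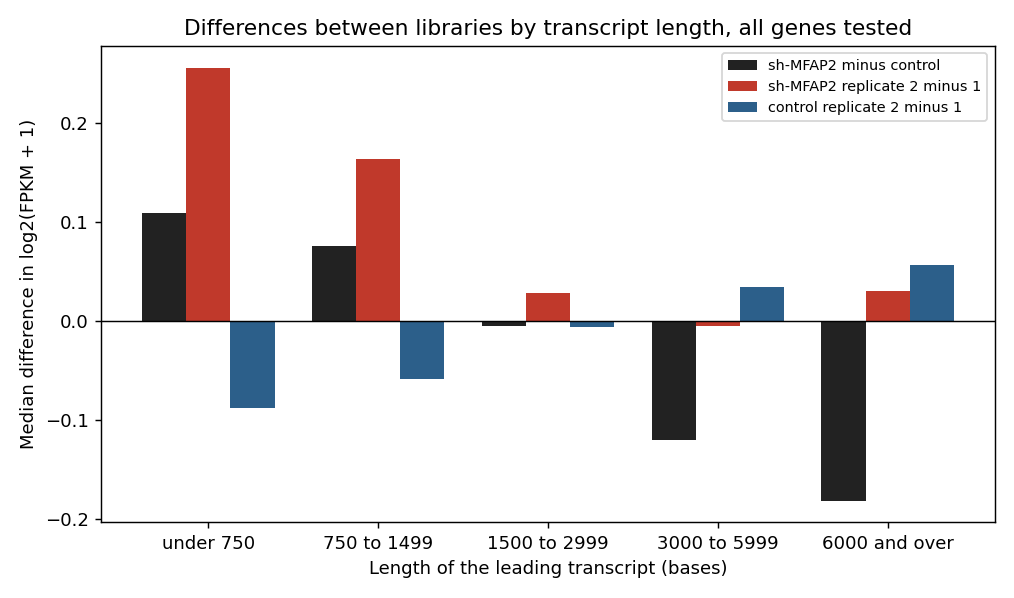
Median difference in log2(FPKM + 1) over all genes tested, by the length of the leading transcript in bases, between the groups (black) and between the replicates of sh-MFAP2 (red) and control (blue). Genes with short transcripts were higher in sh-MFAP2 and in sh-MFAP2 replicate 2, and those of 6000 bases and over had a median log2 fold change of -0.18.

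S100A11 and S100A6 overlap annotated antisense genes, AL450992.1 at 0.125 to 0.256 FPKM and BX470102.1 at 0.229 to 0.568 FPKM. ANXA4 overlaps AAK1, at 0.185 to 0.824 FPKM, on the opposite strand. Whether the values were estimated by strand is not given in the sources used here, so reads of these partners could be counted with the members, and ANXA2 could share reads with its processed copies elsewhere in the genome. The split of S100A6 between transcripts differed from library to library without regard to group. The leading transcript ENST00000368719 had 1630 and 2700 FPKM under the MFAP2 hairpin and 1984 and 1347 FPKM under the scrambled one. The retained-intron transcript ENST00000462951, of only 311 bases, had 574 and 1.12 FPKM under the MFAP2 hairpin and 0.791 and 376 FPKM under the scrambled one. It was thus high in 1 library of each group and near 0 in the other, and the leading transcript was lowest in the libraries where it was high. Another transcript, ENST00000496817, was steady, with 4.59% to 4.81% of the summed transcript values in every library.

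S100A14, an S100 protein of epithelia, had 50.2 and 52.5 FPKM under the MFAP2 hairpin and 46.0 and 28.5 FPKM under the scrambled one. The groups did not overlap, but control replicate 2 stood apart, while control replicate 1 was close to sh-MFAP2. That made a log2 fold change of 0.49 (SE 0.265, adjusted p = 0.500 in limma), and without control replicate 2 it was 0.16. In that library the transcript ENST00000368702 was listed at 0, against 15.7 to 21.9 FPKM in the other libraries. The leading transcript, ENST00000344616, had 26.6 and 23.1 FPKM under the MFAP2 hairpin and 23.0 and 29.9 FPKM under the scrambled one, so by that transcript the log2 fold change was -0.08.

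ANXA2, the most abundant annexin, anchors S100A10 at the membrane. It had 361 and 337 FPKM under the MFAP2 hairpin and 307 and 303 FPKM under the scrambled one, so that the groups did not overlap and the ratio of the means was 1.14. That made a log2 fold change of 0.19 (SE 0.109, 95% interval -0.12 to 0.50, adjusted p = 0.513 in limma). Its leading transcripts, ENST00000451270 and ENST00000421017, differed by 0.19 and 0.24 on the same scale, so that the small difference was shared between them. With quantile normalization, which gives all libraries the same distribution, the value was 0.0041. ANXA2 and S100A10, whose proteins form one complex, did not follow each other across the libraries, since ANXA2 was highest in sh-MFAP2 replicate 1, where S100A10 was lowest.

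ANXA1, an inhibitor of inflammation and partner of S100A11, had 20.3 and 20.3 FPKM under the MFAP2 hairpin and 23.3 and 19.7 FPKM under the scrambled one. That made a log2 fold change of -0.08 (SE 0.129, 95% interval -0.44 to 0.29, adjusted p = 0.811 in limma).

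ANXA3 had 53.6 and 49.0 FPKM under the MFAP2 hairpin and 59.9 and 55.9 FPKM under the scrambled one, without overlap. That made a log2 fold change of -0.17 (SE 0.116, adjusted p = 0.564 in limma). Its leading transcript ENST00000264908 had 115 and 142 FPKM under the MFAP2 hairpin against 173 and 164 FPKM under the scrambled one, a difference of -0.39. In sh-MFAP2 replicate 1 alone, ENST00000503570 reached 35.0 FPKM, while it had 4.40 to 6.55 FPKM in the other libraries.

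ANXA4, an annexin of epithelial membranes, had 13.2 and 14.1 FPKM under the MFAP2 hairpin and 11.8 and 11.7 FPKM under the scrambled one. The groups did not overlap, giving a log2 fold change of 0.20 (SE 0.102, adjusted p = 0.481 in limma). The transcripts beneath it went in opposite directions. ENST00000394295 of 2799 bases had 44.3 and 49.0 FPKM under the MFAP2 hairpin and 32.4 and 34.4 FPKM under the scrambled one, whereas ENST00000409920 of 1414 bases had 7.50 and 4.38 FPKM against 18.5 and 14.1 FPKM. Neither overlapped between the groups, and the differences in log2(FPKM + 1) were 0.47 and -1.34. The sum over all transcripts of ANXA4 was 53.6 and 54.9 FPKM under the MFAP2 hairpin and 53.1 and 50.5 FPKM under the scrambled one, so the total differed by far less than the split between the transcripts.

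**Figure D3:**
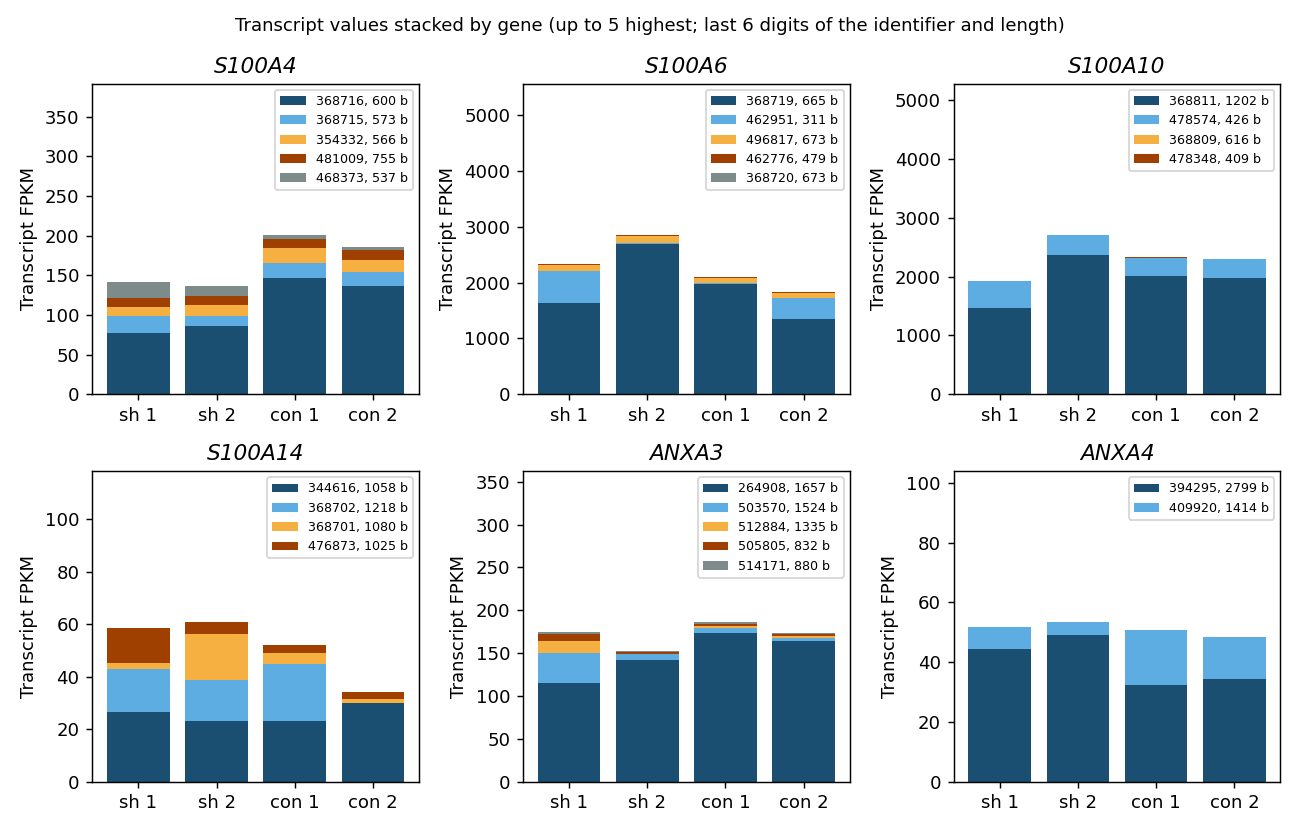
Transcript values in FPKM, stacked from 0 for up to 5 transcripts per gene, in sh-MFAP2 (sh) and control (con) replicates 1 and 2. In S100A4 and ANXA4 the split between transcripts followed the group, in S100A6 the transcript of 311 bases was high in sh 1 and con 2, and in S100A14 the transcript of 1218 bases was missing from con 2.

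**Figure D4:**
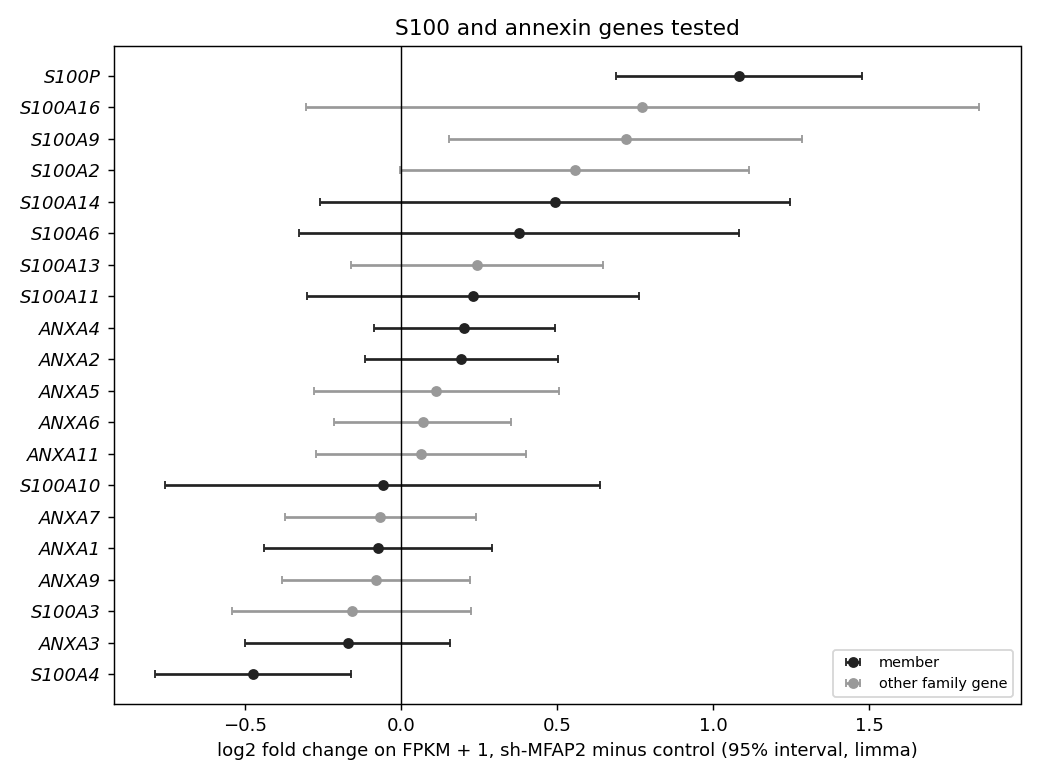
Log2 fold change on FPKM + 1, sh-MFAP2 minus control, with 95% intervals from limma, for the 10 members (black) and the 10 other S100 and annexin genes tested (grey). S100P at 1.08 and S100A4 at -0.48 are the members whose unadjusted interval leaves out 0.

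The order of the levels depended on the length by which reads were divided. In every member the gene value equalled the transcripts' values, each times its own length, over 1 fixed gene length. That length was 680 bases for S100A11 but 7734 bases for ANXA2 and 10317 bases for ANXA4, far longer than their leading transcripts of 1435 and 2799 bases. Gene values thus understate the annexins against the S100 genes. By the mean gene value the order was S100A11 (2134 FPKM), S100A10 (1623), S100A6 (1471), ANXA2 (327), S100A4 (97.2), ANXA3 (54.6), S100A14 (44.3), ANXA1 (20.9), ANXA4 (12.7) and S100P (2.35). By the sum of transcript values S100A11 had 2444 FPKM, S100A10 2314, S100A6 2277 and ANXA2 1798. ANXA2 was then close to its partner S100A10, and in sh-MFAP2 replicate 1 it was above it, at 1982 against 1925 FPKM. ANXA3 (175 FPKM) moved ahead of S100A4 (166 FPKM), and ANXA1 (61.8 FPKM) and ANXA4 (53.0 FPKM) ahead of S100A14 (51.6 FPKM). S100A11, S100A10 and S100A6 overlapped with each other across libraries on this scale, as did ANXA2 with S100A10 and S100A6, ANXA3 with S100A4, and ANXA1 and ANXA4 with S100A14.

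The other S100 genes were read from a list of the whole family, of which 11 of 21 were tested. None was a DEG. These 11 include every S100 member. Of them, 6 had both knockdown libraries above the controls (17.5% of all genes tested did) and 2 below (31.4%). S100P and S100A14 are among those above and S100A4 is among those below, so the counts repeat members. The median log2 fold change was 0.38, against -0.05 over all genes tested. In the length classes of the S100 members' leading transcripts it was 0.11 (under 750 bases) and 0.08 (750 to 1500 bases). The part of length in the family values was not tested. S100A9, a subunit of calprotectin, had 1.46 and 2.42 FPKM under the MFAP2 hairpin and 0.744 and 0.784 FPKM under the scrambled one (log2 fold change 0.72, SE 0.199). Both controls were below 1 FPKM, so S100A9 passed the filter through the group where it was high, and it is 1 of the 6. S100A2 was at 20.0 and 28.0 FPKM, with a mean of 15.8 ± 0.334 FPKM (SD, n = 2) in control (log2 fold change 0.56, SE 0.196).

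S100A16 had 76.0 and 151 FPKM against 67.7 and 57.2 FPKM, with sh-MFAP2 replicate 2 again far above the rest. S100A13 was at 45.7 and 51.5 FPKM against 44.2 and 37.8 FPKM. S100A3 had a log2 fold change of -0.16. S100A8, the partner of S100A9 in calprotectin, was listed at 0 in 3 libraries and at 0.0327 FPKM in the fourth.

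Of 13 annexins 9 were tested, with no DEG, 3 without overlap above the controls (17.5% of all genes tested) and 1 below (31.4%), and a median log2 fold change of 0.06. The 9 include every annexin member, and among those without overlap only ANXA6 is not a member. ANXA7 (53.1 FPKM in the mean), ANXA11 (24.5 FPKM) and ANXA9 (9.90 FPKM) had log2 fold changes of -0.07, 0.06 and -0.08. ANXA6 and ANXA5 were near the filter, at 1.20 and 1.05 FPKM in the mean. ANXA10, an annexin of gastric epithelium, did not reach it, with 0.600 and 0.633 FPKM under the MFAP2 hairpin and 0.466 and 0.478 FPKM under the scrambled one.

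Partners of these proteins were read from lists of the plasminogen system, cell surface receptors, membrane repair and scaffold proteins, and intracellular partners. None of the 19 tested was a DEG. In the plasminogen system 2 of 4 genes tested lay above both controls and 1 below, against 17.5% and 31.4% of all genes tested. SERPINB2, an inhibitor of urokinase and 1 of those above, had 4.19 and 4.96 FPKM under the MFAP2 hairpin and 2.12 and 2.17 FPKM under the scrambled one (log2 fold change 0.82, SE 0.121, adjusted p = 0.238 in limma). PLAU and PLG, urokinase and plasminogen, were listed at or near 0. ENO1, a glycolytic enzyme that can bind plasminogen and the most abundant of the list, had 621 and 384 FPKM against 395 and 394 FPKM.

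In the membrane repair and scaffold list 4 of 7 genes tested lay below both controls and 2 above, against 31.4% and 17.5% of all genes tested. These shares take no account of transcript length, which the group difference followed, and the part of length in the partner lists was not tested. AHNAK, the giant scaffold bound by the S100A10 and ANXA2 complex, had 7.16 and 9.65 FPKM under the MFAP2 hairpin and 14.2 and 11.8 FPKM under the scrambled one. Its log2 fold change was -0.58 (SE 0.193, unadjusted p-value 0.0421 and adjusted p = 0.398 in limma). CAPNS1, the small calpain subunit and the most abundant of the list, had a log2 fold change of 0.23.

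Among intracellular partners 3 of 8 genes tested lay below both controls, near the 31.4% of all genes tested, and 0 above (17.5%). IQGAP1, a scaffold bound by S100P, had 29.6 and 30.9 FPKM under the MFAP2 hairpin and 41.4 and 41.9 FPKM under the scrambled one. Its log2 fold change was -0.45 (SE 0.102, unadjusted p-value 0.0132 and adjusted p = 0.343 in limma). PLA2G4A, the cytosolic phospholipase A2 that annexins and S100A10 can restrain, had 6.70 and 6.95 FPKM against 11.6 and 9.05 FPKM. Its log2 fold change was -0.52 (SE 0.152, unadjusted p-value 0.0292 and adjusted p = 0.394 in limma). EZR, ezrin, the most abundant of the list, had 153 and 188 FPKM against 154 and 198 FPKM and differed less between the groups than within them. Of the 5 receptors none reached a mean of 1 FPKM. FPR1, a formyl peptide receptor that ANXA1 can bind, was the highest, with 1.14 and 0.502 FPKM under the MFAP2 hairpin and 0.872 and 1.14 FPKM under the scrambled one. AGER, which encodes RAGE, had 0.997 and 0.885 FPKM under the MFAP2 hairpin and 0.572 and 0.880 FPKM under the scrambled one.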

How the data were processed

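The 4 RNA-seq libraries of AGS cells, 2 per group, were grouped by their labels. The authors deposited a gene table and a transcript table with 1 value per library, taken here as FPKM from the values themselves. The submitters' processing notes name hg38. The aligner, the program that estimated the values, the annotation and strandedness are not given in the sources used here. Coordinates are from GENCODE 29 on GRCh38 and upstream sequences from RefSeq.

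The 9873 genes whose mean was 1 FPKM or more were fitted as log2(FPKM + 1) in limma 3.58.1 (R 4.3.3), using eBayes with a trend of the variance, and p-values were adjusted over all of them (Benjamini-Hochberg). A gene was a DEG if its p was below 0.01 and its adjusted p below 0.05. The fit and the reading of the step between low values were tested on simulated data. Counting intervals cannot be given from FPKM. No count test was used, since low values lay only in part on whole steps (within 0.05), and a smaller step matched somewhat better. Tables were handled in Python 3.11.15 with pandas 2.3.3 and drawn with matplotlib 3.10.9.

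The members and the lists were chosen with earlier results of these data known. Genes named beyond the members are the tested genes of both families, the partners without overlap between groups and with an unadjusted p under 0.05, and the most abundant gene of each partner list. S100A8, ANXA10, PLAU, PLG, AGER, the markers and the antisense partners were named after their values were seen. Alternatives were other filters, a pseudocount of 0.1, other scalings, the replicate number as a block, no variance trend, the summed transcripts and each library left out in turn, and, after seeing the data, the leading transcript and a length trend removed. Two-sided tests were used throughout. Copies of the members were looked for in the gene table only by name (the member's name, P and a number), and none was found. Whether processed copies in the genome share reads with the members was not tested.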

Additional observations from a re-analysis of the deposited data

How the results depend on the processing

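No member passed the limits in any of 149 alternative fits, and the sign was kept in 145. S100A10 changed sign with scaling by median of ratios (0.00785) and without sh-MFAP2 replicate 1 (-0.364 to 0.244 over the libraries left out), ANXA1 without control replicate 1 (-0.189 to 0.0389), and S100A14 with its leading transcript in place of the gene value (-0.0794), an alternative chosen after seeing the data. S100P stayed between 0.951 and 1.55 and S100A4 between -0.790 and -0.409. There were 6 DEGs when all 23806 genes above 0 in any library were tested and 9 among genes averaging 5 FPKM or more, where S100P was left out. Loosening the limits gave 46 (adjusted p below 0.1 alone), 296 (unadjusted p below 0.01 alone) and 1214 (unadjusted p below 0.05 alone). With a library left out it was 0 in each case (555 to 2166 genes at an unadjusted p under 0.05 in limma), with the lone library assumed to vary like the other group. With the replicate number as a block it was 0 (722 genes at an unadjusted p under 0.05 in limma). The correlation of deviations between libraries with one number was -0.0572 over genes, so the replicate numbers give no pairing. What else set these counts, beside the libraries or genes left out, was not tested. The count of members without overlap was 5 to 8 under the alternatives with all libraries and 7 to 9 with a library left out, where lack of overlap comes more easily. The median over the members ran from 0.0751 to 0.243 with a library left out and was 0.0740 with leading transcripts, 0.127 with summed transcripts and 0.262 with median of ratios. Depth is inferred, so counting error behind single values is not known.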
